A study of Mus musculus with 15 samples.

Results

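The NMDA receptor subunit genes were followed in parvalbumin-class interneurons of mouse somatosensory cortex between postnatal days (P) 7 and 40. Of the 6 genes Grin1, Grin2a, Grin2b, Grin2c, Grin2d and Grin3a, 5 had at least 1 probe set annotated to that symbol alone, 11 probe sets in all of 34945 single-gene probe sets on the array. Grin1, which encodes the obligatory GluN1 subunit, was not analysed here. The neurons came from G42 mice, a transgenic line in which a Gad1 promoter drives green fluorescent protein in a subset of cortical interneurons. All animals carried the transgene, and the labels give no further allele or treatment. Each of 15 Affymetrix Mouse Genome 430 2.0 arrays held RNA from 23 to 85 fluorescent neurons picked by hand from 1 animal, with 3 animals at each of P7, P10, P15, P25 and P40, the oldest group reaching day 45.

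NMDA receptors are glutamate-gated channels that pass calcium, need glycine or D-serine as a co-agonist and are blocked by magnesium at resting potential. GluN1 combines with GluN2 subunits, encoded by Grin2a to Grin2d, which bind glutamate and set the channel's kinetics, or with GluN3 subunits, which bind glycine and lower calcium entry and magnesium block. In many forebrain neurons GluN2B and GluN3A are known as subunits of the early postnatal period and GluN2A as one that is added later.

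The picked cells carried most markers listed for their class, and some listed for other interneurons. Of 12 parvalbumin interneuron markers, 10 exceeded a log2 value of 5, taken as the limit of background, on all P7 arrays and 11 did so at every later age. Pvalb itself passed that limit on no P7 array. Of 8 markers of other interneurons, 4 exceeded the limit on all arrays at P7, P10, P15 and P25 and 3 at P40. The lists therefore do not set the picked cells apart from other interneurons. Of 8 excitatory neuron markers, at most 2 did so at any age, and Slc17a7, the vesicular glutamate transporter of excitatory cells, never exceeded 2.62. No microglial or endothelial marker exceeded the limit on all arrays of any age, while up to 3 of 7 oligodendrocyte and 2 of 9 astrocyte markers did so, both counts at P25. P15 replicates 2 and 3 stood apart in the BioB hybridization control, at 2.14 and 2.08 where every other array read 5.59 or more. The gap between 3′ and 5′ control probe sets of beta-actin, a sign of shortened RNA, was 5.77 ± 0.98 (SD, n = 3) at P7 and 3.93 ± 0.55 at P40.

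The 11 probe sets fell into those with signal and those without. Grin2b, Grin2d and Grin3a each had probe sets above background, 5 in all, and all other probe sets stayed at background on all 15 arrays. The only probe set of Grin2a, which encodes the GluN2A subunit of mature synapses, ran from 2.09 to 2.22. The only probe set of Grin2c, which encodes the GluN2C subunit best known from the cerebellum, ran from 2.46 to 2.78. These values lie within the range of probe sets without signal, so they give no order between ages.

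A probe set at background did not show that a transcript was absent. For Grin2b, 1422223_at never exceeded 1.98 and 1431700_at never exceeded 2.67, while 1442370_at and 1457003_at of the same gene read at least 8.79 and 8.97 on every array. For Grin2d, 1421393_at never exceeded 1.72 on arrays where 1442328_at read at least 5.57. For Grin3a, 1458378_at never exceeded 2.72. All 4 subunit probe sets designed on a RefSeq transcript were at background, those of Grin2a and Grin2c among them, and 5 of the 7 designed on other transcript sequences were above it. Over the whole array the shares were alike, with 43.3% of RefSeq-based and 44.2% of other single-gene probe sets above 5 on at least 3 arrays. Grin3b, the other GluN3 gene of the array, likewise had 1 probe set, between 2.55 and 3.62.

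**Figure D1:**
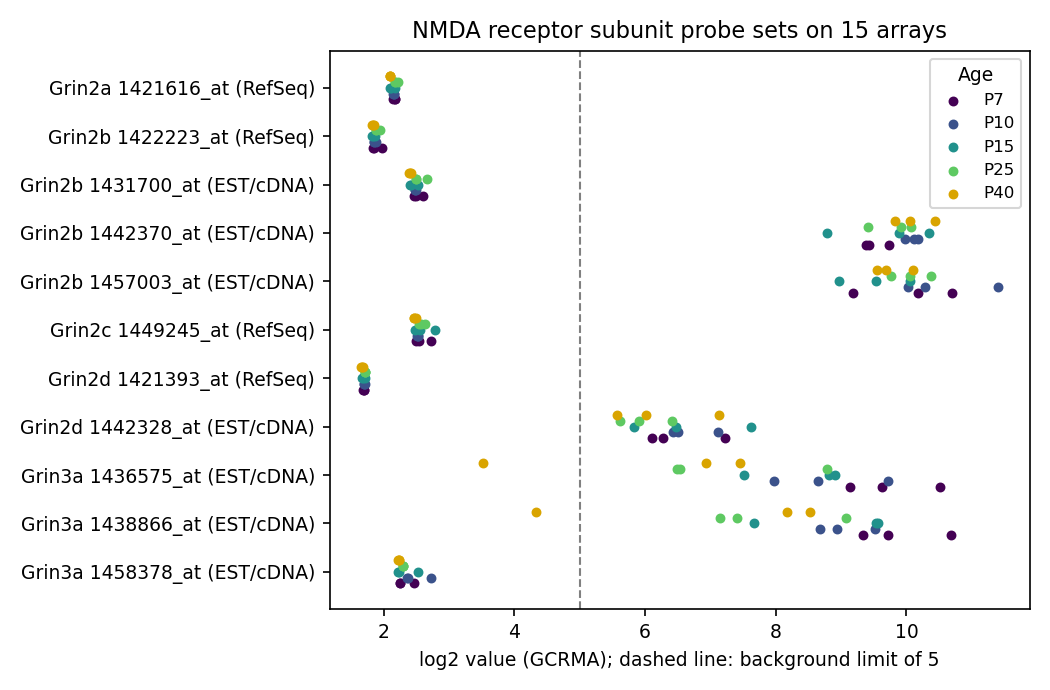
Log2 values (x axis) of the 11 probe sets of 5 NMDA receptor subunit genes (y axis, with the kind of sequence each was designed on), 1 point per array, coloured by age, with the background limit of 5 dashed. All points of Grin2a, Grin2c and 4 other probe sets lie under 2.79, and 5 probe sets of Grin2b, Grin2d and Grin3a lie mostly above 5.

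Grin3a, which encodes the GluN3A subunit, was called lower at P40 than at P7. Its brightest probe set, 1438866_at, read 10.68, 9.34 and 9.72 at P7 and 9.52, 8.94 and 8.67 at P10. At P15 it read 7.67, 9.54 and 9.57, at P25 9.08, 7.40 and 7.15, and at P40 4.33, 8.52 and 8.18. Every P40 array lay below every P7 array, and P40 replicate 1 lay far below the other 2 P40 arrays and under the background limit. The mean fell from 9.91 ± 0.69 (SD, n = 3) at P7 through 9.04 ± 0.43, 8.93 ± 1.09 and 7.88 ± 1.05 to 7.01 ± 2.33 at P40. The arrays of ages next to each other in this order overlapped throughout.

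Between P7 and P40 Grin3a fell 7.46-fold, a log2 difference of -2.90 (SE 0.89, 95% interval -4.80 to -1.0, adjusted p = 0.016 by limma over 9663 genes). In that comparison 45.2% of all genes tested were called at an adjusted p under 0.05, 17.6% as lower, so a call alone did not set Grin3a apart. Its fall was larger than that of most genes: 281 of 9663 had a lower log2 difference, and the median over all genes was 0.177. Its scatter within ages was also large, with a residual SD of 1.29 against a median of 0.43 over all genes. Without P40 replicate 1 the difference was -1.56 (SE 0.64, adjusted p = 0.071), and without P7 replicate 1 it was -2.52 (adjusted p = 0.053). In bulk samples such as these, fewer cells with a transcript and less transcript per cell cannot be told apart.

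The second Grin3a probe set above background, 1436575_at, moved the same way and more steeply. It read 10.52, 9.13 and 9.62 at P7, 9.72, 7.98 and 8.64 at P10, and 7.52, 8.82 and 8.91 at P15. At P25 it read 8.78, 6.54 and 6.49, and at P40 3.52, 6.94 and 7.46. The groups at P7 and P40 did not overlap, and again P40 replicate 1 was lowest. Fitted over 15381 probe sets, of which 41.9% were called, its difference was -3.78 (SE 0.89, 95% interval -5.69 to -1.87, adjusted p = 0.0038). Without P40 replicate 1 it was -2.56 (adjusted p = 0.015), and it was called without any other single array as well (adjusted p from 0.0025 to 0.015). Both probe sets read the same RNA of the same arrays, so the second is not a replicate of the first.

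No single step between neighbouring ages carried the fall. The log2 differences of 1438866_at were -0.87 from P7 to P10, -0.12 from P10 to P15, -1.05 from P15 to P25 and -0.87 from P25 to P40, each with SE 0.89 and adjusted p from 0.58 to 0.94. Called genes made up 3.6, 11.4, 4.86 and 0.673% of all genes in those steps. The moderated F test for any difference between the 5 ages gave adjusted p = 0.082 for Grin3a by limma, where 47.2% of all genes were called, and adjusted p = 0.022 for 1436575_at in the fit of probe sets. By P25 the difference from P7 was -2.03 for 1438866_at (adjusted p = 0.079, with 41.7% of all genes called) and -2.49 for 1436575_at (adjusted p = 0.04). The mean of P25 and P40 was 2.03 lower than that of P7 and P10 on the log2 scale (log2 difference -2.03, SE 0.63, adjusted p = 0.013 by limma, with 54% of all genes called).

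**Figure D2:**
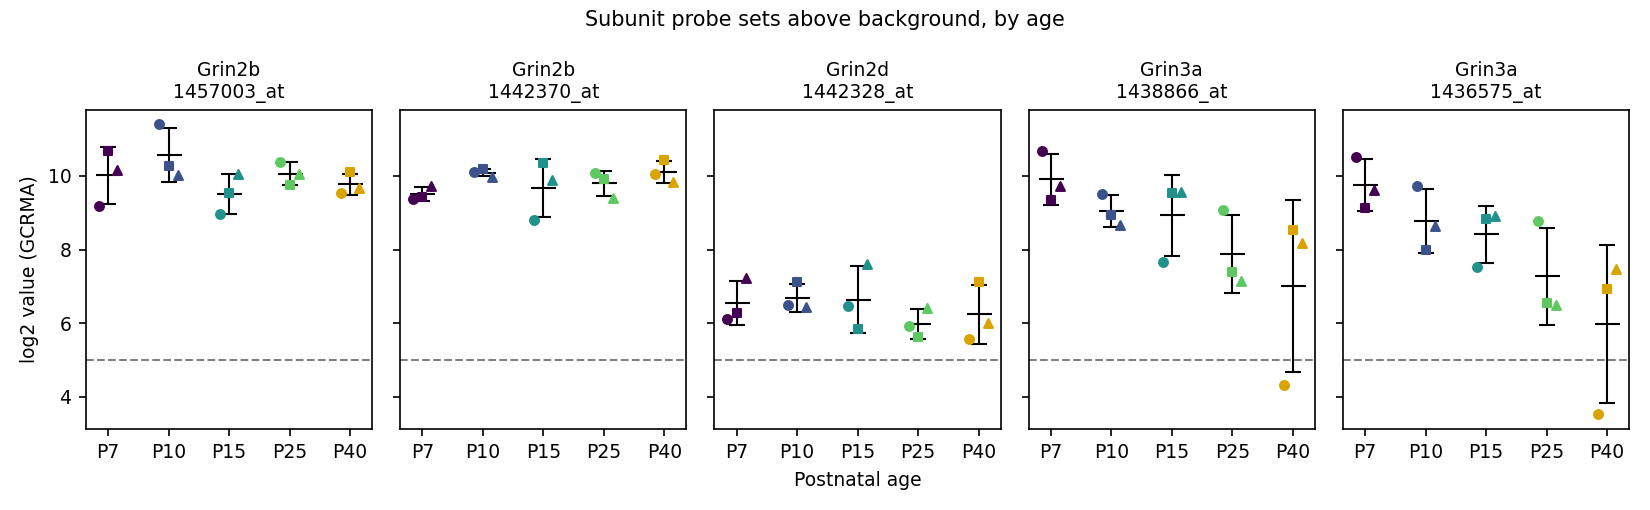
Log2 values (y axis) of the 5 subunit probe sets above background at 5 postnatal ages (x axis). Circles, squares and triangles are replicates 1, 2 and 3, black bars give mean and SD (n = 3), and the dashed line is the background limit of 5. The Grin3a means fall at each step, from 9.91 to 7.01 and from 9.76 to 5.97, with P40 replicate 1 lowest in both, while those of Grin2b and Grin2d stay within about their scatter.

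On P40 replicate 1, where Grin3a was lowest, 1 marker of another interneuron class was low as well. Sst, the somatostatin peptide of another interneuron class, read 1.72 on that array, against 11.04 and 12.24 on P40 replicates 2 and 3 and at least 9.20 on all arrays of the younger ages. Of the 8 markers of other interneurons, 4 exceeded 5 on all 3 arrays at P7, P10, P15 and P25 and 3 did so at P40, where Sst did not. Npy, Cck and Cnr1 exceeded 5 on every array, with 12.48, 11.51 and 11.14 on P40 replicate 1, and Vip and Htr3a stayed at background on every array. The log2 of the 8 markers' summed signal ran from 12.02 to 13.63 at P7, 11.96 to 13.22 at P10, 13.14 to 15.21 at P15, 13.44 to 14.36 at P25 and 13.41 to 14.03 at P40. Across the 15 arrays Pearson's r between Grin3a and Sst was 0.77, and without P40 replicate 1 it was 0.25, both given as descriptions of arrays that share age and amplification. For the other 7 markers r with Grin3a ran from -0.38 for Cck to 0.33 for Vip. Lhx6, a transcription factor of the parvalbumin interneuron list, had an r of 0.58, and 0.85 without P40 replicate 1, the highest of its list. Over the 15 arrays r was also positive for Sox6 (0.48, and 0.09 without P40 replicate 1) and Erbb4 (0.22). Erbb4 passed the limit of 5 only on P7 replicate 3, at 5.27. For all other markers of that list r was negative over the 15 arrays, from -0.67 for Kcnc1 to -0.21 for Satb1, with -0.60 for Pvalb. Without P40 replicate 1 that of Satb1 was 0.24. Without P40 replicate 1, the log2 difference between P7 and P40 was 0.11 for Sst (adjusted p = 0.93 by limma) and -1.56 for Grin3a (adjusted p = 0.071), neither of them called. The part of Sst-expressing cells in the Grin3a result was not tested.

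**Figure D3:**
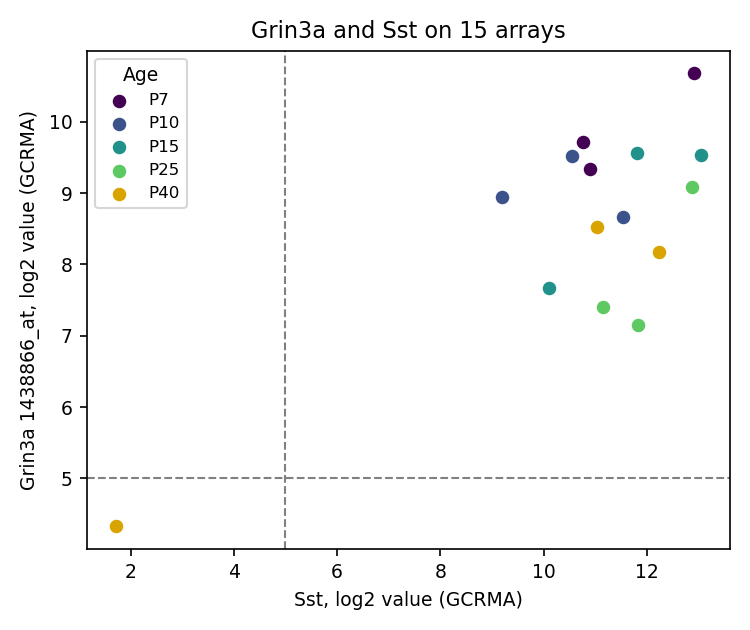
Log2 value of Grin3a probe set 1438866_at (y axis) against that of Sst (x axis), 1 point per array, coloured by age, with the background limit of 5 dashed on both axes. P40 replicate 1 lies alone at 1.72 for Sst and 4.33 for Grin3a, and the other 14 arrays spread without a clear slope (r = 0.25).

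The genes whose values over the 15 arrays were most like those of Grin3a were Gda, 6330403K07Rik and Zcchc12, with Pearson's r of 0.942, 0.942 and 0.938. Gda, which encodes guanine deaminase, read 4.52, 9.42 and 9.31 on the P40 arrays. 6330403K07Rik read 5.77, 9.88 and 9.61, and Zcchc12, a zinc finger gene, read 5.39, 9.97 and 9.75. All of them shared the low value of P40 replicate 1. Their log2 differences between P7 and P40 were -3.70, -3.64 and -2.71 (adjusted p = 0.006, 0.0022 and 0.034 by limma), and without P40 replicate 1 they were -2.08, -2.31 and -1.22. The call of Zcchc12 was lost without P40 replicate 1 or any of the 3 P7 arrays. These genes were picked for their likeness to Grin3a on the same arrays, so a fall like its own follows from the choice. Their adjusted p values are therefore no separate test.

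Grin2b, which encodes GluN2B, was read well above background at every age, and no change with age was found. Its brightest probe set, 1457003_at, read 9.18, 10.69 and 10.17 at P7, 11.40, 10.28 and 10.02 at P10, and 8.97, 9.54 and 10.05 at P15. It read 10.37, 9.76 and 10.06 at P25 and 9.55, 10.10 and 9.68 at P40. The ages overlapped, in the order P10, P25, P7, P40 and P15 from the highest mean, 10.56 ± 0.73 (SD, n = 3), to the lowest, 9.52 ± 0.54. The difference between P7 and P40 was -0.24 (SE 0.41, adjusted p = 0.67 by limma), with a 95% interval from -1.12 to 0.65, or from 0.459-fold to 1.56-fold of the P7 level. The largest step, from P10 to P15, was -1.05 (SE 0.41, adjusted p = 0.11). The F test gave adjusted p = 0.26.

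The other Grin2b probe set above background pointed the other way without passing the test. 1442370_at read 9.38, 9.43 and 9.74 at P7 and 10.06, 10.43 and 9.83 at P40, groups that did not overlap. The difference was 0.59 (SE 0.33, 95% interval -0.12 to 1.31, adjusted p = 0.17 by limma over 15381 probe sets). At P10, P15 and P25 it averaged 10.09 ± 0.10, 9.67 ± 0.80 and 9.80 ± 0.34 (SD, n = 3). A log2 rise of up to 1.31 by this probe set, or a log2 difference down to -1.12 by the brighter one, lay within the 95% intervals.

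Grin2d, which encodes GluN2D, a subunit with slow decay noted in interneurons, was dim but above background on every array. 1442328_at read 6.11, 6.28 and 7.23 at P7, 6.50, 7.12 and 6.43 at P10, and 6.47, 5.83 and 7.62 at P15. It read 5.91, 5.62 and 6.41 at P25 and 5.57, 7.13 and 6.01 at P40. The means ran from 6.68 ± 0.38 (SD, n = 3) at P10 to 5.98 ± 0.40 at P25. Ages next to each other in the order of means overlapped. The highest and lowest, P10 and P25, did not, but only just, with their nearest arrays at 6.43 and 6.41. The difference between P7 and P40 was -0.31 (SE 0.50, adjusted p = 0.64 by limma), with a 95% interval from -1.37 to 0.76, or from 0.387-fold to 1.69-fold. No step passed the test, with adjusted p from 0.53 to 0.96, and the F test gave adjusted p = 0.65.

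The genes most like Grin2b over the 15 arrays were 4930526I15Rik, Kcnq1ot1 and Insm1, with Pearson's r of 0.912, 0.895 and 0.836. Those most like Grin2d were Entpd6, Zdhhc21 and Tmem120b, with r of 0.815, 0.757 and 0.749. None of these 6 genes was called between P7 and P40, with log2 differences from -1.11 to 0.06 and adjusted p from 0.15 to 0.97. They too were picked on the same arrays, so this is no separate result on Grin2b or Grin2d.

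Whether the subunits changed unequally was asked from the log2 difference between 2 genes on the same array, compared between the 6 arrays of P7 and P10 and the 6 of P25 and P40. The size of such a difference depends on the probe sets and has no meaning of its own, so its shift with age is what was tested, over 3 pairs of genes. Grin2b minus Grin3a ran from -1.50 to 1.88 with a median of 1.34 on the younger arrays and from 1.29 to 5.21 with a median of 1.97 on the older ones. The groups overlapped. The shift tested was that of the mean, from 0.81 to 2.47, or 1.66 toward Grin2b (two-sided exact permutation p = 0.041, adjusted p = 0.081). The medians lay closer together than the means. The mean of Grin2d minus Grin3a shifted by 1.53, from -2.87 to -1.34 (exact permutation p = 0.054, adjusted p = 0.081), and its median went from -2.75 to -1.59. The mean of Grin2b minus Grin2d shifted by 0.14 (exact permutation p = 0.73, adjusted p = 0.73). No pair passed after adjustment, where the smallest p the design can give is 0.0022.

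Genes whose products bind, carry or modify NMDA receptors, or make, degrade or transport serine or glycine, moved in both directions. Of 65 such genes written in 4 lists, 57 were on the array under a single symbol and 51 were tested between P7 and P40. Of those, 17 rose, 12 fell and 22 did not pass, so 56.9% were called against 45.2% of all genes, where 27.5% rose and 17.6% fell, and their median log2 difference was 0.19 against 0.177. Without P7 replicate 2, 11 rose, while the count over all genes went from 2662 to 2217. With the beta-actin gap as a covariate 10 rose, and 1368 over all genes. With each gene read from the mean of all its probe sets, dim ones included, 10 rose, and 2334 over all genes.

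Of the scaffold and transport genes, 19 were tested, 5 of them rose and 5 fell (52.6% called, 45.2% over all genes), with a median of 0.19. Cask, a membrane-associated guanylate kinase of the complex that carries NMDA receptors to synapses, fell 6.52-fold, from 10.52 ± 0.18 to 7.81 ± 0.21 (SD, n = 3; adjusted p = 3.6e-05). Lin7c, a small adaptor of the same complex, fell 11.9-fold, from 9.18 ± 1.22 to 5.60 ± 0.53 (adjusted p = 0.0014). Kif17, the motor known to carry GluN2B along dendrites, went from 3.01 ± 0.23 to 5.09 ± 0.64 (adjusted p = 0.0043), with only 1 P40 array above background. Lin7a, a relative of Lin7c, rose 2.25-fold (adjusted p = 0.0059) with overlapping arrays, but another of its probe sets had the opposite sign (-0.96) and their mean gave 0.25. The mean of all probe sets of a gene takes in those too dim to be tested. It gave -1.20 for Cask and -1.99 for Lin7c in place of -2.70 and -3.58. Each has 4 probe sets, 2 of them tested, at -2.70 and -1.47 for Cask and -3.58 and -4.17 for Lin7c. Without P7 replicates 3 and 1, Lin7c gave -4.19 and -2.97.

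Of 6 co-agonist genes tested, 1 rose and 1 fell (33.3% called, 45.2% over all genes), with a median of -0.26. Slc1a4, a transporter of serine and other neutral amino acids, fell 2.42-fold, from 11.95 ± 0.30 to 10.68 ± 0.41 (SD, n = 3; adjusted p = 0.00071), while another of its probe sets gave 0.06 and the mean of all its probe sets -0.73 in place of -1.28. Psph, the last enzyme of serine synthesis, read 5.93 ± 0.88 and 7.75 ± 0.49 (adjusted p = 0.049). Its call did not survive the removal of any single P25 or P40 array, of P7 replicate 2 or 3, of P10 replicate 2 or of P15 replicate 1 (adjusted p up to 0.17).

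Of the kinase and phosphatase genes, 16 were tested, 5 of them rose and 4 fell (56.2% called, 45.2% over all genes), with a median of 0.01. Camk2a, the alpha subunit of the calcium/calmodulin kinase that docks on GluN2B, rose 4.24-fold, from 5.38 ± 0.36 to 7.47 ± 0.16 (SD, n = 3; adjusted p = 0.00014), with 1 P7 array under the background limit. Camk2g, the gamma subunit, rose 2.35-fold, from 11.07 ± 0.17 to 12.30 ± 0.07 (adjusted p = 7e-04). Cdk5r1, which encodes the p35 activator of Cdk5, fell 2.13-fold, from 12.46 ± 0.10 to 11.37 ± 0.11 (adjusted p = 0.00029). Ppp3ca, a catalytic subunit of calcineurin, fell 1.80-fold, from 12.78 ± 0.16 to 11.93 ± 0.23 (adjusted p = 0.00081). The mean of all 4 probe sets of Cdk5r1, dim ones included, gave -0.59 in place of -1.09, while the 2 that were tested gave -1.09 and -1.51. Camk2a has 6 probe sets, of which only 2 were bright enough to be tested, with log2 differences of 2.08 and 1.80.

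Of the effector and auxiliary genes, 10 were tested, 6 of them rose and 2 fell (80% called, 45.2% over all genes). Their median was 1.19, against 0.177 over all genes. Rasgrf1, a calcium-activated Ras exchange factor that binds GluN2B, had the largest rise of the partner genes, from 7.60 ± 0.99 to 13.43 ± 0.28 (SD, n = 3; adjusted p = 2.6e-08), most of it by P10, at 11.44. Pacsin1, an endocytic adaptor that binds GluN3A, rose 6.83-fold, from 9.78 ± 0.59 to 12.55 ± 0.14 (adjusted p = 8.7e-07). Lrp8, a reelin receptor that associates with NMDA receptors, fell 4.77-fold, from 9.71 ± 0.35 to 7.46 ± 0.45 (adjusted p = 0.00016). Neto1, an auxiliary protein of NMDA and kainate receptors, fell 2.50-fold, from 11.96 ± 0.14 to 10.64 ± 0.38 (adjusted p = 0.00061). The mean of all probe sets, dim ones included, gave 4.67 for Rasgrf1 and -1.62 for Lrp8 on the log2 scale, in place of 5.83 and -2.25. Each has 3 probe sets, 2 of them tested, at 5.83 and 8.12 for Rasgrf1 and -2.25 and -2.53 for Lrp8.

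**Figure D4:**
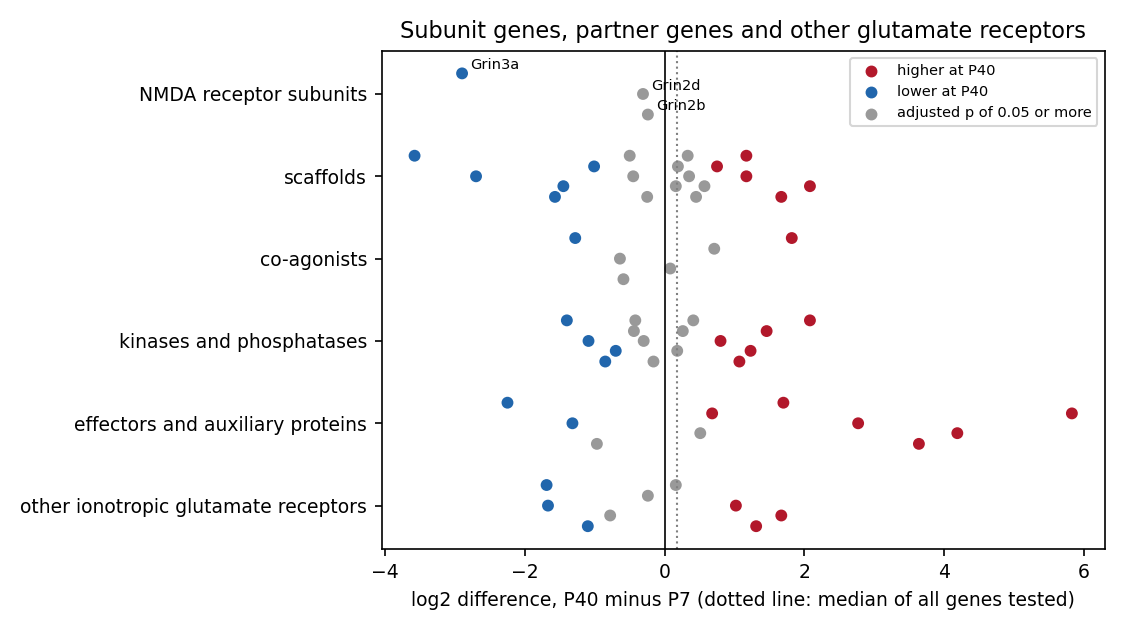
Log2 difference between P40 and P7 (x axis) of each tested gene, in rows for the 3 tested subunit genes, the 4 lists of partner genes and the other ionotropic glutamate receptors. Red and blue points are genes called higher or lower at P40 by limma, grey points were not called, vertical position within a row only separates points, and the dotted line is the median of all genes tested, 0.177. Grin3a lies at -2.90, Grin2d at -0.31 and Grin2b at -0.24.

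Among the other ionotropic glutamate receptor genes 9 were tested, of which 3 rose, 3 fell and 3 did not pass, beside 27.5% of all genes that rose and 17.6% that fell. Their median was -0.24. With the mean of each gene's probe sets 2 rose and 2 fell, where 2334 of all genes rose and 1398 fell in place of 2662 and 1703. The 3 that rose encode AMPA receptor subunits and the 3 that fell kainate receptor subunits, and a difference between these families was not tested. Gria4 rose from 10.49 ± 0.45 to 12.17 ± 0.23 (SD, n = 3; adjusted p = 0.00023) and Gria3 from 11.27 ± 0.20 to 12.29 ± 0.49 (adjusted p = 0.0038). Grik3 fell from 11.58 ± 0.47 to 9.89 ± 0.23 (adjusted p = 0.00058) and Grik2 from 11.37 ± 0.26 to 9.70 ± 0.36 (adjusted p = 0.00095). Averaging each gene's probe sets changed the log2 differences to 0.91 for Gria4, 0.90 for Gria3, no longer called, -0.93 for Grik3 and -0.91 for Grik2. Grik3 and Grik2 have 2 probe sets each, of which 1 was tested and the other was too dim. The tested probe sets of Gria4 gave 1.67 and 0.75 and those of Gria3 1.02 and 0.77.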

How the data were processed

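The authors deposited log2 values, 1 per probe set and array, made with GCRMA, which corrects background, normalizes and summarises, per the submitters' processing notes. Its version is not given in the sources used here. Per the labels' protocols, 0.3 to 1 ng of RNA was amplified with T7 polymerase in 2 rounds, which favours sequence near the 3′ end of a transcript. Precision is limited by the number of arrays, 3 an age.

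Values were used as deposited. Probe sets were named from GEO's platform annotation, where 34945 of 45101 had 1 gene symbol, 932 several, 9160 none and 64 were controls. A gene was read from the brightest of its single-gene probe sets and tested if it exceeded 5 on at least 3 of 15 arrays (9663 of 18193 genes). The same filter left 15381 probe sets for the fit of probe sets. limma 3.58.1 in R 4.3.3 fitted the 5 age means with empirical Bayes moderation and a trend in the prior variance (10 residual and 4.85 prior degrees of freedom), two-sided, with Benjamini-Hochberg adjustment over all genes or probe sets within a contrast. Genes are called at an adjusted p under 0.05, the SE given is limma's moderated one, and a fold needs both means above 5. The fits were tested on simulated data. Figures were made with matplotlib 3.10.9 and pandas 2.3.3 under Python 3.11.15.

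The members, the lists of partner genes, the limit of 5 and the tests were chosen with earlier results of these data known. Named were all subunit probe sets, in each list the 2 called genes of smallest adjusted p for each direction, and for each tested subunit gene the 3 genes with the highest Pearson r. Grin3b, Sst, Npy, Cck, Cnr1, Vip, Htr3a, Pvalb, Slc17a7 and Lhx6 were named beside them as markers or relatives. Sst and Lhx6 were added after their values were seen, as were Kcnc1, Satb1, Sox6 and Erbb4. Each array came from another animal, and the labels do not pair replicate numbers across ages.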

Additional observations from a re-analysis of the deposited data

How the results depend on the processing

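Grin3a kept its negative sign between P7 and P40 in all settings run, from -4.20 to -2.03 over 15 settings and from -3.65 (without P40 replicate 2) to -1.56 (without P40 replicate 1) with single arrays left out. Its call was lost with cells picked as a covariate (-2.45, adjusted p = 0.068) and with P25 minus P7 (-2.03), a choice made after seeing the data, as were leaving out P15 replicates 2 and 3, comparing P25 and P40 with P7 and P10, and 5 settings for probe sets. Its F test was called with quantile normalization (adjusted p = 0.042), equal array medians (0.037), the mean of probe sets (0.047) and the 3′ minus 5′ covariate (0.046). Its step from P10 to P15 changed sign with array weights (0.33) and cells picked (0.67), as did that of Grin2d (0.03 and 1.21).

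Grin2b and Grin2d were called under none of the settings run, but their sign between P7 and P40 was not stable. Grin2b gave 0.04 with the mean of probe sets, 0.17 with cells picked, 0.05 with P25 minus P7 and from -0.66 to 0.10 with single arrays left out. Grin2d gave 0.40 with cells picked and from -0.75 to 0.04 with single arrays left out, and the mean of its probe sets fell below the filter. With single arrays left out, the shift of Grin2b minus Grin3a ran from 1.11 to 1.90, that of Grin2d minus Grin3a from 1.01 to 1.89 and that of Grin2b minus Grin2d from -0.01 to 0.38. Both shifts against Grin3a were called without P25 replicate 1 (adjusted p = 0.033 and 0.026). With the mean of probe sets Grin2b minus Grin3a shifted by 1.54 (exact permutation p = 0.0043). It was the only pair in that setting, so this p is unadjusted, unlike those adjusted over 3 pairs. The count of partner genes that rose was 10 with the mean of probe sets, where 2334 of all genes rose. It was 10 with the 3′ minus 5′ covariate (1368 of all genes) and 11 with P25 minus P7 (2530 of all genes). With single arrays left out it ran from 11 to 17, and that of all genes from 2168 to 2780. Without a filter on dim genes 5523 genes were called lower in place of 1703, and with the 3′ minus 5′ covariate 1368 were called higher in place of 2662. The causes were not tested.

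The labels do not pair the animals by replicate number. Deviations of same-numbered arrays of different ages correlated with a median of -0.07, from -0.40 to 0.27 over 30 pairs. For arrays of different numbers the median was 0.02, from -0.35 to 0.52 over 60 pairs. Such correlations cannot show that no batch was shared. With a replicate block Grin3a gave -2.90 (adjusted p = 0.026), and no call of a subunit gene changed. In that setting 15 partner genes rose, and 2517 over all genes in place of 2662.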
